A study of Homo sapiens with 6 samples.

Results

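FOXO factors and the insulin-feedback genes they control were examined with and without TGFβ in the human cancer cell line Panc-1, which was derived from an adenocarcinoma of the pancreas. The set held 10 genes: the transcription factors FOXO1, FOXO3 and FOXO4, the insulin signalling genes IRS2 and INSR, and the FOXO target genes CCNG2, RBL2, TRIB2, KLHL24 and SESN3. These 10 of the 19777 genes with a probe set of their own on the array were chosen by their role and with the difference between treated and untreated arrays in view, so their levels and differences are given as a description with no test. A probe set is the group of short probes that stands for one transcript, and the members were covered by all 36 probe sets, of 54675 in all, that the array annotation ties to only one of them.

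The study used TGFβ to bring about an epithelial-mesenchymal transition (EMT), the change of epithelial cancer cells toward a spindle-shaped, migratory state. In its comparison of cell lines the paper counts Panc-1 among the mesenchymal-like ones. Total RNA was measured on 6 Affymetrix HG-U133 Plus 2.0 arrays, 3 from cells labelled as untreated controls and 3 from cells given 5 ng/mL porcine TGFβ1 for 48 h. The labels give serum starvation for 24 h before treatment for all 6 samples, and by the methods the controls then received fresh medium without TGFβ for the same time. The labels and the methods give the dose in different units, and the dose given here is that of the labels. One cell line, one dose and one time were sampled. The methods speak of triplicate experiments, but nothing states that the replicates came from separate cultures. The errors therefore measure the spread between these arrays, which may be technical.

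FOXO proteins are forkhead transcription factors held in check by insulin. When insulin or growth factors activate PI3K and AKT, AKT phosphorylates FOXO proteins, and 14-3-3 proteins keep them in the cytoplasm; when the signal fades they return to the nucleus and switch on genes for cell cycle arrest, stress defence and autophagy. They also activate the genes of the insulin receptor and its adaptor, a feedback that raises the cell's sensitivity to insulin while insulin is low, and their nuclear partners include the SMAD proteins that carry the TGFβ signal.

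FOXO proteins bind DNA at the letters GTAAACA, and the insulin response element of classical target promoters carries the letters CAAAACA. Both were searched on both strands in the RefSeq promoter windows of build GRCh38.p14, which run from 250 bases before to 50 after a start site. GTAAACA or its complement stood in 3.42% of all 35116 windows, CAAAACA or its complement in 4.92%, and either in 8.07%. All 10 members had a window and together they had 14, of which 4 held one of the letter sets, in FOXO4, IRS2, TRIB2 and KLHL24. No match of one set overlapped a match of the other in these windows. The bases before the start site are shown for the 3 of these genes that were measured on the arrays, with the match in capitals: at -40 in IRS2 (chr13:109786584-109786833, minus strand), at -32 in KLHL24 (chr3:183635373-183635622, plus strand) and at -249 in TRIB2 (chr2:12716686-12716935, plus strand).
IRS2: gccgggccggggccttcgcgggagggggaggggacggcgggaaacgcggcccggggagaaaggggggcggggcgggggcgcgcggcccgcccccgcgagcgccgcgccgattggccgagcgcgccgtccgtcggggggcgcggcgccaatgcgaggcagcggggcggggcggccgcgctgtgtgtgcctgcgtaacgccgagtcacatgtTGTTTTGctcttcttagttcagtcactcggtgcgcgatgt
KLHL24: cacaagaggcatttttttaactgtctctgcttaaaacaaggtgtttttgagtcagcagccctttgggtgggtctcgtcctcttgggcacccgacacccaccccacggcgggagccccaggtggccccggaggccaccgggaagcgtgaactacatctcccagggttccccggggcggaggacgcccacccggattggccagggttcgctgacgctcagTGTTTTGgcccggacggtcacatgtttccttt
TRIB2: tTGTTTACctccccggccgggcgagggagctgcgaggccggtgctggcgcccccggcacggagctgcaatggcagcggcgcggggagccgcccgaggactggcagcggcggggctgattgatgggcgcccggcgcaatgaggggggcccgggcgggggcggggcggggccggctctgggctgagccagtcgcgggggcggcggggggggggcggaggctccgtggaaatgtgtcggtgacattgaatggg
IRS2 and KLHL24 carried the insulin response letters close to the start site and TRIB2 the FOXO letters at the far end of the window, each on the reverse strand. A match is a description of the letters, not of binding, and the arrays did not measure binding.

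Values are log2 of the array signal as deposited, so a difference of 1 is a doubling. A probe set counted as measured when its mean log2 value was at least 6.64, a signal of 100, in either group, the limit of the study's methods. By that limit 20 of the 36 member probe sets and 8 of the 10 genes were measured, and FOXO4 and SESN3 were not. Of the 20 probe sets, 16 were past the limit in both groups and 4 in untreated cells alone. Those 4 had to be higher without TGFβ to be kept, so counts over the probe sets that passed describe them and support nothing. The average over a gene's measured probe sets stands for the gene.

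After TGFβ, 7 of the 8 measured genes were lower and 1, FOXO1, was higher. CCNG2, which codes for cyclin G2, an inhibitor of cell cycle progression, was 2.18-fold lower, RBL2 1.72-fold, INSR 1.52-fold, KLHL24 1.5-fold, TRIB2 1.37-fold, IRS2 1.36-fold and FOXO3 1.35-fold lower. FOXO1 was 1.43-fold higher. In all 8 genes the 3 treated values lay on one side of the 3 untreated values, which was also so for 68.2% of the 10115 genes tested. All 8 had an adjusted p under 0.05 in the fit across all genes, in which 58.7% of genes did so, 27.7% higher and 31.0% lower. All 20 measured probe sets were also past that threshold, against 55.1% of the 19101 probe sets tested. Nothing is read from these counts, since the contrast was used in choosing the members. The median difference of the 8 genes was -0.52, beside -0.013 over all genes tested. Of the 8, 4 were at least 1.5-fold lower. That size was reached by 1357 of the 10115 genes, 730 of them lower and 627 higher.

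**Figure D1:**
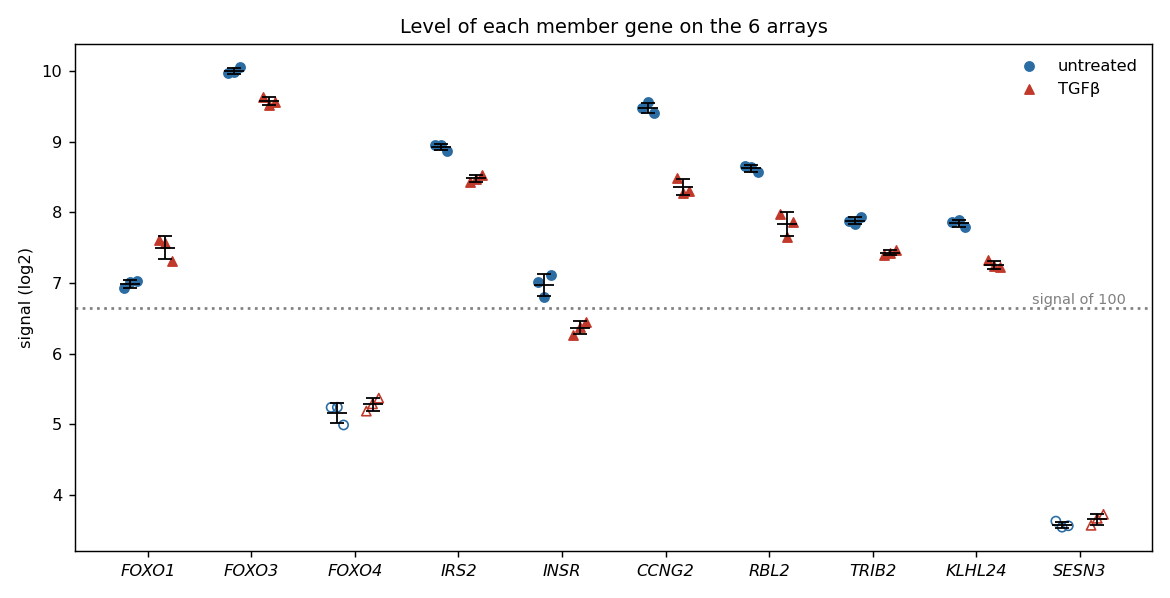
Each point is the log2 signal of a member gene on 1 array, with untreated arrays as circles and TGFβ arrays as triangles, replicates 1 to 3 from left to right; bars mark the mean and the SD over 3 arrays, open symbols are genes whose probe sets were all below the signal limit, and the dotted line is a signal of 100. The groups do not overlap for the 8 measured genes, with FOXO1 alone higher after TGFβ, while FOXO4 and SESN3 lie below the line.

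Epithelial markers were lower in sum after treatment, and markers of other cell types were below the limit. The summed signal of 6 epithelial markers was 13.5 to 13.6 (log2) on untreated and 12.1 to 12.2 on treated arrays, and 5 of the 6 passed the limit, KRT19 being below it. KRT8, KRT18, EPCAM and CDH1 had lower means with TGFβ, while KRT7 was at 6.91, 6.66 and 6.76 without and 6.92, 7.12 and 6.99 with it. No marker of leukocytes, endothelial cells, fibroblasts, acinar cells or islet cells that had a probe set of its own passed the limit; the summed leukocyte signal, for example, was 6.61 to 6.72 in untreated and 6.56 to 6.68 in treated samples. The arrays resembled each other in overall distribution, with a median of 5.14 to 5.21 and 33.4 to 33.8% of probe sets at or above a signal of 100. The 3' minus 5' difference of the ACTB control probe sets, a sign of RNA integrity, moved with the groups: it was 0.52 to 0.57 in untreated and 0.27 to 0.39 in treated samples, while that of GAPDH ranged from -0.043 to -9.11e-05 over all 6. The part of these shifts in the differences of the member genes was not tested. In bulk RNA, fewer cells of a type and less RNA per cell cannot be told apart.

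The FOXO factors differed in direction. FOXO1, the family member best known for the control of glucose production, was read by a single measured probe set, 202724_s_at, at 6.93, 7.01 and 7.03 in untreated replicates 1 to 3 and at 7.62, 7.57 and 7.31 after TGFβ. All treated values were above all untreated ones, and treated replicate 3 was nearest to the untreated range. The means were 6.99 ± 0.054 (SD, n = 3), near the limit, without and 7.50 ± 0.16 with TGFβ, a difference of 0.51 (SE 0.083). A probe set below the limit, 202723_s_at, went the same way at 5.85, 5.85 and 5.63 without and 5.99, 6.41 and 6.51 with TGFβ, a difference of 0.53. The remaining one, 228484_s_at, stood between 3.78 and 3.89 on all 6 arrays, with a difference of 0.0020 and overlapping groups.

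FOXO3, a factor linked to stress resistance and long life, had 3 measured probe sets. Its gene value was 9.98, 9.99 and 10.06 in untreated cells and 9.64, 9.52 and 9.57 after TGFβ. The groups were apart by several times their SD of 0.043 and 0.061, with a difference of -0.43 (SE 0.054). Its 3 measured probe sets were lower by different amounts, 204131_s_at with a difference of -0.48, 224891_at with -0.49 and 224889_at with -0.32. At 224889_at the smallest gap between same-numbered arrays was -0.17, in replicate 1. The remaining one, 231548_at, was below the limit, with overlapping groups and a difference of -0.023. Another 3 probe sets are annotated to both FOXO3 and its close copy FOXO3B and were left out of the gene value: 204132_s_at was lower after TGFβ by a difference of -0.31 with groups apart, 210655_s_at had a difference of -0.19 with overlapping groups, and 217399_s_at, below the limit, 0.010.

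FOXO4, the third widely expressed family member, had 1 probe set, 205451_at, below the limit on every array. It read 5.24, 5.24 and 4.99 in untreated and 5.19, 5.29 and 5.37 in treated cells, with overlapping groups and a difference of 0.13. Its level was too low for a difference to be read.

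The insulin receptor and its adaptor were both lower after TGFβ. INSR, the receptor that starts the pathway, was at 7.01, 6.80 and 7.11 in untreated and 6.27, 6.38 and 6.45 in treated cells. Every treated gene value was below a signal of 100 and every untreated one above it, and INSR was measured through the untreated group alone. The difference was -0.61 (SE 0.073), from a mean of 6.98 ± 0.16 to 6.37 ± 0.094. Both probe sets that passed shared it, 213792_s_at at -0.62 and 226450_at at -0.60, though the second varied more between arrays, 6.94 to 7.50 untreated and 6.29 to 6.87 treated. Below the limit, 226212_s_at and 226216_at were lower with groups apart, by differences of -0.51 and -0.61, and 207851_s_at overlapped between groups with a difference of -0.039.

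IRS2, the adaptor that couples the receptor to PI3K and whose promoter is shown above, read 8.96, 8.95 and 8.88 in untreated and 8.44, 8.48 and 8.53 in treated cells. The spread within each group was small, an SD of 0.046 in both, and the 2 groups were apart by a difference of -0.45 (SE 0.056). The brighter probe set, 209185_s_at, gave 10.16, 10.26 and 10.09 without and 9.55, 9.72 and 9.63 with TGFβ, a difference of -0.54. The other, 209184_s_at, gave -0.36.

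Among the target genes of cell cycle arrest, CCNG2 had the largest difference of the set when measured probe sets were averaged. At the brightest probe set of each gene KLHL24 had a larger one, -1.43 against -1.10 for CCNG2. The gene value of CCNG2 was 9.48, 9.56 and 9.41 in untreated cells and 8.49, 8.28 and 8.31 after TGFβ, and treated replicate 1 was the highest of its group. The mean went from 9.48 ± 0.075 to 8.36 ± 0.11, a difference of -1.12 (SE 0.067). That was larger in size than the difference of 96.6% of all genes tested, a share that was lowest among the members for FOXO3, at 77.3%. Nothing is read from these ranks, since the contrast was used in choosing the members. The 4 measured probe sets ranged from -0.98 at 211559_s_at to -1.38 at 228081_at. At 202769_at, where replicates were closest, the values were 10.76, 10.81 and 10.77 against 9.71, 9.67 and 9.65. A probe set below the limit, 1555056_at, had overlapping groups and a difference of 0.011.

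RBL2 codes for p130, a relative of the retinoblastoma protein that holds cell cycle genes silent in resting cells. It was at 8.66, 8.65 and 8.57 in untreated and 7.98, 7.66 and 7.87 in treated cells. The treated arrays were the more variable, with an SD of 0.17 against 0.049, and treated replicate 2 was the lowest. The difference was -0.79 (SE 0.075), made up of -0.94 at 212331_at and -0.63 at 212332_at.

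TRIB2, a pseudokinase that binds AKT and is known to restrain FOXO proteins, was at 7.88, 7.84 and 7.94 in untreated and 7.40, 7.43 and 7.46 in treated cells. The treated values lay close together and all below the untreated ones, with a difference of -0.45 (SE 0.049). Its probe sets gave -0.54 at 202478_at and -0.37 at 202479_s_at, the second being past the limit in untreated cells alone.

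KLHL24, a substrate adaptor of a cullin ubiquitin ligase known for the turnover of keratins, was at 7.86, 7.89 and 7.80 in untreated and 7.32, 7.24 and 7.22 in treated cells, a difference of -0.59 (SE 0.051). Its 4 measured probe sets agreed in direction but not in size. The brightest, 226158_at, read 9.03, 9.05 and 9.24 against 7.81, 7.54 and 7.67, a difference of -1.43, while 221986_s_at gave -0.43, 221985_at -0.28 and 206551_x_at -0.21. With the brightest probe set in place of the average, the gene's difference was therefore -1.43, and it was the only member whose size moved by over 1.5 times with any of the alternative settings. The probe set 242088_at, was below the limit with groups apart and a difference of -0.37.

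SESN3, a sestrin that restrains mTOR complex activity and is a known FOXO1 target, had 7 probe sets, and all lay near the lowest values of the arrays, at mean signals of 10.7 to 13.5. Their differences ran from -0.038 to 0.27, and the groups were apart at 235684_s_at alone, where the means were 3.48 and 3.76. At that level no difference could be read.

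**Figure D2:**
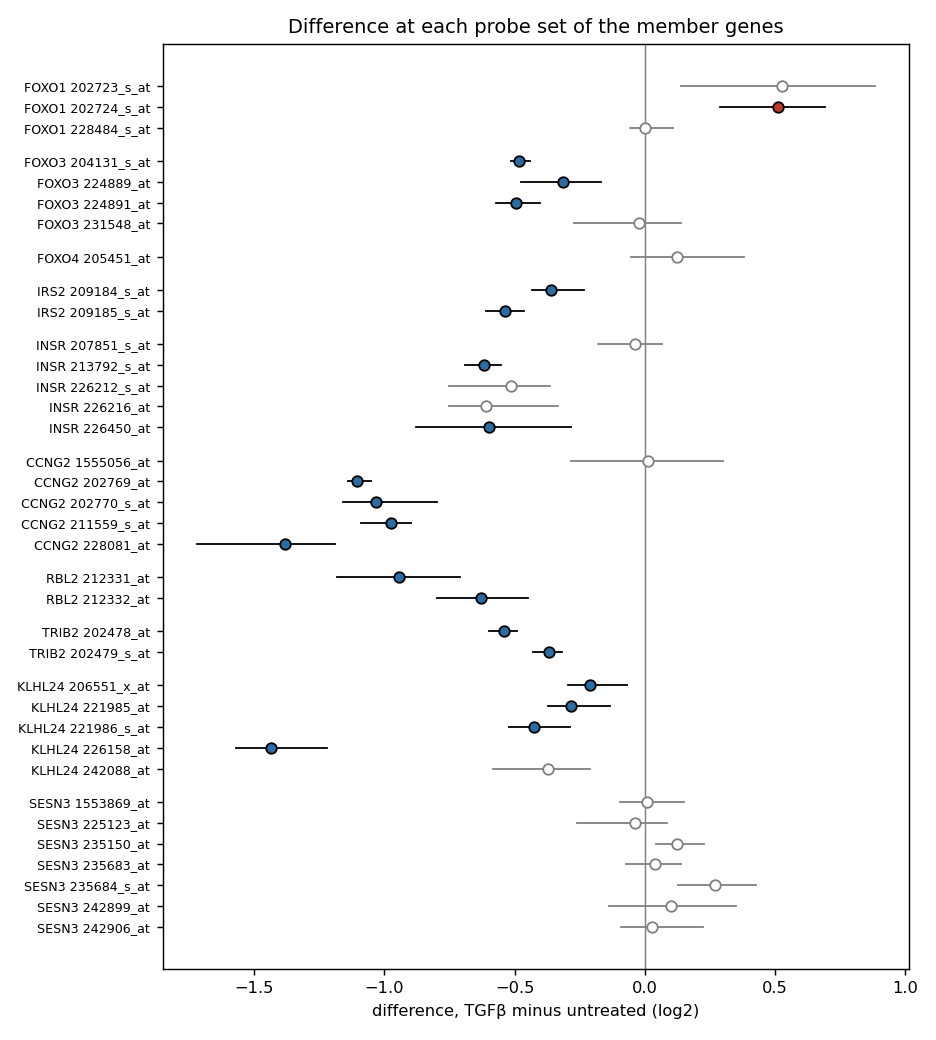
Each row is a member probe set; the point is the difference between the TGFβ and untreated means (log2) and the line runs from the lowest to the highest difference between same-numbered arrays. Filled points passed the signal limit (blue lower, red higher) and open grey points did not; the 19 blue points lie left of 0, from -1.43 at KLHL24 226158_at to -0.21 at KLHL24 206551_x_at, and the red one, FOXO1, lies right of it.

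Across the 6 arrays the 7 lower members ran in parallel, as 2 groups of arrays that differ must make them. Pearson's r of the log2 values was 0.88 to 0.999 between pairs of them, highest between CCNG2 and KLHL24, and -0.97 to -0.89 between FOXO1 and each of them. The genes most like FOXO1 over the 6 arrays were PSMC1, a proteasome subunit (r = 0.996), BZW1 (r = 0.995) and WDR59, a subunit of the amino acid sensing complex GATOR2 (r = 0.994), and 7 genes in all had an r over 0.99 with it. Those most like FOXO3 were CLPX, a mitochondrial protease subunit, MICAL2, an actin oxidase, and the non-coding GALNT7-DT, each at r = 0.999, and 296 genes had an r over 0.99. These values are a description of 6 arrays in 2 groups.

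Further genes were taken from 8 lists, and 1 gene may stand in several of them. The lists were chosen with earlier results of these data known, so their counts, shares and medians are a description. The closest relatives of the members did not all move as the members did. Of 13 such genes, 10 were measured, 6 fell, 2 rose and 2 did not pass, a share called of 80% beside 58.7% of all genes. FOXO6, the FOXO factor that stays largely nuclear, fell from a mean of 7.75 to 7.10, a difference of -0.64 (SE 0.060), so that FOXO1 was the only one of the 3 measured FOXO genes with a higher mean after TGFβ. IRS1, the sister adaptor of IRS2, fell by 0.45 (SE 0.065), and CCNG1, the p53-induced relative of CCNG2, fell by 0.81 (SE 0.054). RB1 fell by 0.22 and SESN1, the p53-linked sestrin, fell by 0.26. TRIB1 rose by 0.69 (SE 0.050) and the stress-induced SESN2 by 0.86 (SE 0.057). CCNI had a difference of -0.015 and TRIB3 one of 0.041, and IRS4, INSRR and RBL1 were below the limit. IGF1R, the receptor closest to INSR, passed with a difference of -0.21 (adjusted p = 0.0356) although its groups overlapped.

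The IGF1R call was lost without the replicate block (adjusted p = 0.0876), without the signal limit (0.0909), with a limit of 200 (0.0537), with median centring (0.0571), without replicate 2 (0.119) and without replicate 3 (0.224), and its difference was -0.56 at its brightest probe set. That of RB1 was lost without replicate 2 (adjusted p = 0.069). TRIB1 rose by 0.36 without the signal limit. The signs of the 2 genes that did not pass were unsettled, CCNI being at 0.026 without replicate 3 and TRIB3 at -0.11 at its brightest probe set.

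**Figure D3:**
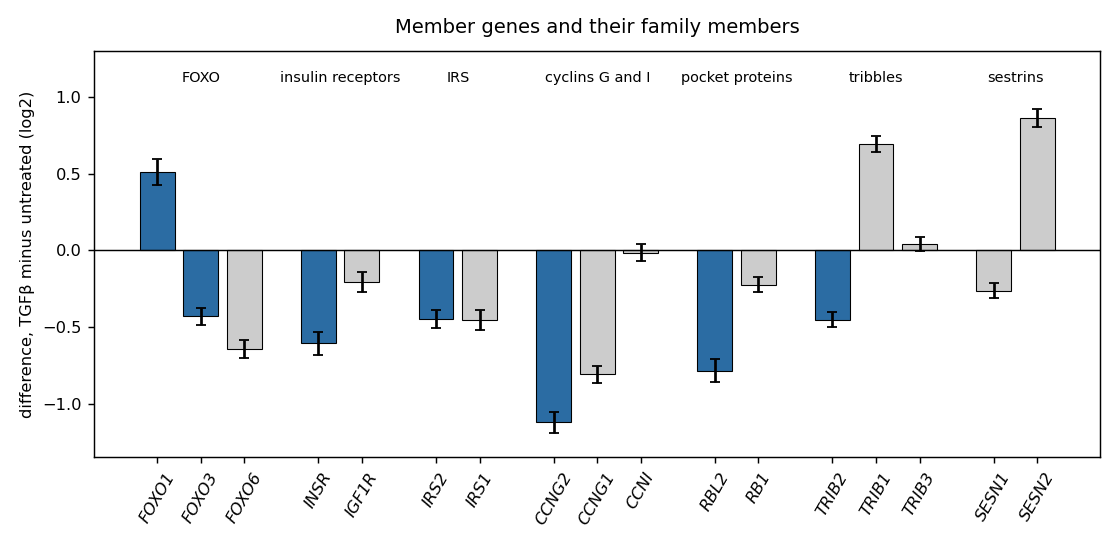
Bars give the difference between TGFβ and untreated means (log2) for measured member genes (blue) and their measured relatives (grey), grouped by family, with the SE of the fit. FOXO1, TRIB1 and SESN2 stand clearly above 0, TRIB3 and CCNI lie within about 1 SE of it, and the others are below.

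Genes reported to be switched on by FOXO factors moved in both directions. Of 48 such genes outside the set, 34 were measured, and 20 fell, 9 rose and 5 did not pass. Thus 85.3% were called beside 58.7% of all genes, and the median difference was -0.26 beside -0.013. Nothing is read from this share or median, since the list was chosen with earlier results of these data known. The largest fall was in TXNIP, an inhibitor of thioredoxin and of glucose uptake, from 9.43, 9.46 and 9.20 to 6.02, 5.72 and 5.89, and it fell by 3.49 (SE 0.090). PDK4, the kinase that shuts off pyruvate dehydrogenase in fasting, fell by 3.11 (SE 0.087), and both had treated means below the limit. PDK4 passed the limit through the untreated group alone and had to be lower to be kept. CITED2, a transcriptional co-regulator, fell by 1.5, and CDKN1B, the cell cycle inhibitor p27 and the classical FOXO target in growth arrest, fell by 1.24 (SE 0.070). The genes that rose included ULK1, the kinase that starts autophagy, by 1.76 (SE 0.13), GADD45B, a stress gene, by 1.42, CDKN1A, the cell cycle inhibitor p21, by 1.3 (SE 0.048), and KLF2 by 0.94. The pair of inhibitors thus went opposite ways: CDKN1A from 9.58, 9.58 and 9.62 to 10.88, 10.91 and 10.88, and CDKN1B from 10.54, 10.59 and 10.57 to 9.46, 9.19 and 9.33. The 5 that did not pass were BNIP3L at -0.10, CAT at -0.064, LPIN1 at -0.032, ADIPOR1 at -0.013 and PNPLA2 at -0.0039. Without the signal limit PDK4 fell by 1.36 and CITED2 fell by 0.97, and KLF2 rose by 0.44.

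All 4 genes reported to be held down by FOXO factors rose and were called, beside 27.7% of all genes tested that were called higher. CCND2, cyclin D2, went from 4.82, 4.75 and 5.06, below the limit, to 7.53, 7.19 and 7.25, a difference of 2.45 (SE 0.097). MYC, a driver of growth, went from 9.84, 9.93 and 9.91 to 11.33, 11.20 and 11.24, a difference of 1.37 (SE 0.060). CCND1, cyclin D1, rose by 0.51 (SE 0.075) and FOXM1, a forkhead factor of mitosis, by 0.28 (SE 0.048). With 4 genes, one of which passed through the treated group alone, the count is a description. Nothing is read from it, since the list was chosen with earlier results of these data known. CCND2 rose by 1.28 without the signal limit and CCND1 by 0.34 at its brightest probe set.

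**Figure D4:**
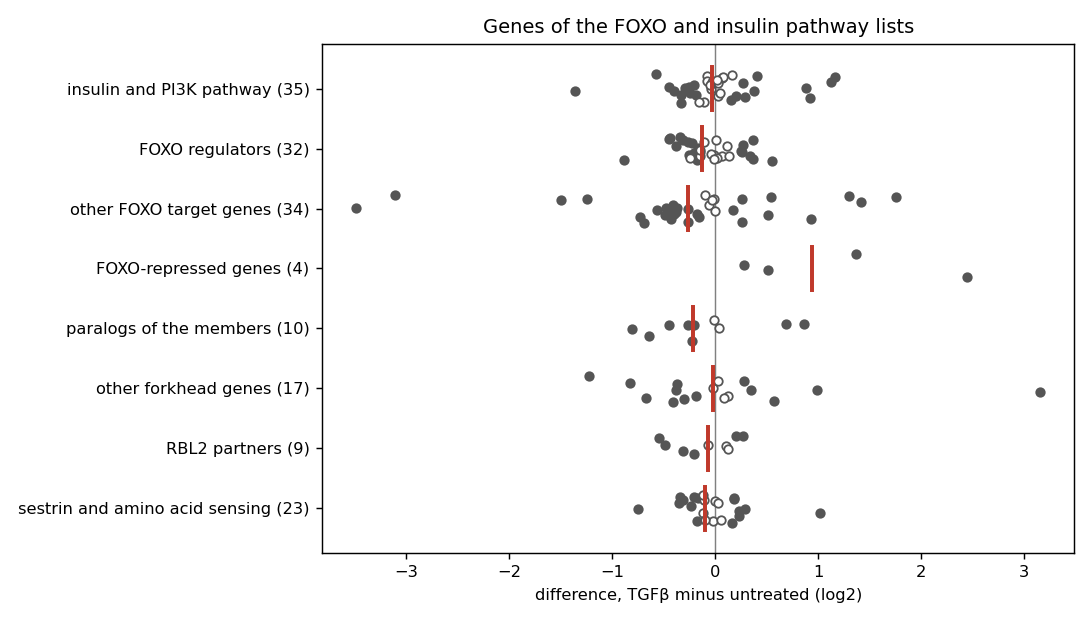
Each point is the difference between TGFβ and untreated means (log2) of a measured gene in one of 8 lists, with the number measured in brackets; filled points had an adjusted p under 0.05 and red bars are list medians. Other FOXO target genes spread furthest, from -3.49 to 1.76, all 4 FOXO-repressed genes lie right of 0, and the other list medians are between -0.21 and -0.022.

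Genes of the insulin and PI3K pathway moved in both directions. Of 44 genes 35 were measured, 10 rose, 11 fell and 14 did not pass, with 60% called, close to the 58.7% of all genes, and a median of -0.029. EIF4EBP1, the translation brake that mTOR inactivates, rose by 1.17 (SE 0.052), PIK3CD, a PI3K catalytic subunit, by 1.12 (SE 0.057), CBL, a ubiquitin ligase of receptor kinases, by 0.92, and GRB10, an adaptor that dampens the insulin receptor, by 0.88. DEPTOR, an inhibitor of mTOR, fell by 1.36 (SE 0.053), PIK3R1, the p85 regulatory subunit of PI3K, fell by 0.58, IRS1 fell by 0.45 as above, and RICTOR, the defining subunit of mTOR complex 2, fell by 0.40. AKT1 and AKT2, the kinases that act on FOXO proteins, had differences of -0.081 (SE 0.061, adjusted p = 0.292) and -0.082 (SE 0.058, adjusted p = 0.267). DEPTOR fell by 0.70 without the signal limit.

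Proteins that bind or modify FOXO factors were all measured but 1. Of 33 genes 32 passed the limit, 7 rose, 13 fell and 12 did not pass, with 62.5% called beside 58.7% of all genes and a median of -0.13. The 14-3-3 genes YWHAH and YWHAE rose by 0.55 (SE 0.073) and 0.34 (SE 0.069). Of the other 14-3-3 genes in the list, YWHAG rose by 0.25 and SFN fell by 0.16. YWHAB at 0.14, YWHAQ at 0.0091 and YWHAZ at -0.012 did not pass, so the 14-3-3 genes did not all rise. USP7, a deubiquitinase of FOXO proteins, rose by 0.37 and PRMT1, a methyltransferase that opposes their phosphorylation by AKT, by 0.37. SMAD3, which carries the TGFβ signal and binds FOXO proteins, fell by 0.88 (SE 0.050), from 9.58, 9.55 and 9.72 to 8.74, 8.68 and 8.78. XPO1, the nuclear exporter, fell by 0.45, SIRT1, a deacetylase, fell by 0.44, and MDM2, a ubiquitin ligase, fell by 0.38. Without the signal limit 4 genes rose and 5 fell, the YWHAH call was lost (0.15, adjusted p = 0.0984), XPO1 fell by 0.27 and MDM2 fell by 0.23. The number that fell was 8 without replicate 2 and 7 without replicate 3, and MDM2 fell by 0.61 without probe sets whose names end in _x_at.

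The wider forkhead family changed in both directions. Of 37 genes outside the FOXO class 17 were measured, 5 rose, 8 fell and 4 did not pass, with 76.5% called beside 58.7% of all genes and a median of -0.022. FOXS1 rose by 3.16 (SE 0.066), from 5.33, 4.97 and 5.13, below the limit, to 8.33, 8.16 and 8.42. It passed the limit through the treated group alone and had to be higher to be kept. FOXF2, a mesenchymal factor, rose by 0.99, FOXD1 by 0.57, FOXP4 by 0.35 and FOXM1 as above. FOXA2, a pioneer factor of endoderm and pancreas, fell by 1.23 (SE 0.054), from 8.62, 8.63 and 8.56 to 7.46, 7.32 and 7.35. FOXQ1 fell by 0.83, FOXL1 fell by 0.67 and FOXJ3 fell by 0.41. FOXL1 had means of 6.77 without and 6.10 with TGFβ, so it passed the limit through the untreated group alone and had to be lower to be kept. The 4 that did not pass were FOXN2 at -0.022, FOXP1 at 0.029, FOXL2 at 0.082 and FOXK2 at 0.12. Without the signal limit 5 genes fell, FOXA2 fell by 0.80, FOXL1 fell by 0.33 and the FOXP4 call was lost (0.10, adjusted p = 0.233).

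RBL2 works in the DREAM complex, which represses cell cycle genes, and of its 12 listed partners 9 were measured. Of these 2 rose, 4 fell and 3 did not pass, with 66.7% called beside 58.7% of all genes and a median of -0.073. RBBP4, a histone-binding subunit, fell by 0.54 (SE 0.052), TFDP2, an E2F dimer partner, fell by 0.49 (SE 0.053), DYRK1A, the kinase that assembles the complex, fell by 0.31 and LIN52 fell by 0.21. MYBL2, which replaces RBL2 on the complex in cycling cells, rose by 0.27 (SE 0.061) and E2F4, the usual E2F partner of RBL2, by 0.20 (SE 0.054). LIN37 was at -0.073, E2F5 at 0.10 and TFDP1 at 0.13, and these did not pass. Of the 6 calls, that of RBBP4 alone held in each alternative run, with a fall of 0.24 at its brightest probe set. At the brightest probe sets the calls of TFDP2 (-0.11, adjusted p = 0.13), LIN52 (-0.083, 0.329) and E2F4 (0.15, 0.143) were lost, leaving 1 that rose and 2 that fell. The count that rose was 1 with a limit of 200 and 1 without replicate 3, and 0 without replicate 2, where the calls of LIN52 (adjusted p = 0.0969), MYBL2 (0.0737) and E2F4 (0.145) were lost. Without replicate 3 the calls of LIN52 (0.0743) and E2F4 (0.0839) were lost, and DYRK1A lost its call without the signal limit (-0.064, 0.482).

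Sestrins act on the amino acid sensing complexes upstream of mTOR and on AMPK, the energy-sensing kinase. Of 27 genes of this machinery 23 were measured, 7 rose, 8 fell and 8 did not pass, with 65.2% called beside 58.7% of all genes and a median of -0.10. PRKAB2, a regulatory subunit of AMPK, rose by 1.02 (SE 0.056), from 7.12, 7.10 and 7.09 to 8.24, 8.09 and 8.02. Its sister subunit PRKAB1, at a higher level, fell by 0.23 (SE 0.048), from a mean of 9.18 to 8.94. PRKAA2, a catalytic subunit, fell by 0.34 (SE 0.071). Of the other AMPK subunits PRKAA1 fell by 0.18, PRKAG2 rose by 0.16 and PRKAG1, at -0.10, did not pass. RRAGB, one of the Rag GTPases that bring mTOR to the lysosome, fell by 0.75 (SE 0.064), KICS2 fell by 0.35 and LAMTOR3 fell by 0.31. NPRL3, WDR59 and SEC13, subunits of the GATOR complexes, rose by 0.29, 0.23 and 0.23. Without replicate 2 the counts dropped to 2 that rose and 3 that fell, and the calls of KICS2 (adjusted p = 0.0504), LAMTOR3 (0.0923), NPRL3 (0.0522) and WDR59 (0.062) were lost. Without replicate 3 they were 4 and 5, median centring left 4 that rose, and the absence of the signal limit left 5 that fell, PRKAA2 not among them (-0.092, adjusted p = 0.35); at the brightest probe sets NPRL3 (0.11, 0.149) and LAMTOR3 (-0.036, 0.654) lost their calls and KICS2 fell by 0.16.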

How the data were processed

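Human Panc-1 cells were profiled on 6 single-colour oligonucleotide arrays. The deposited values are log2 signals, 1 per probe set and array, from 2.89 to 14.8; the software, background correction and normalisation that the authors used to make them were not given in the sources used here, and scanner files were not analysed here. Depth does not apply to arrays, whose precision is limited by their number. Probe sets were named through the platform annotation: of 54675, 41091 named 1 gene, 1801 several and 11721 none, and 62 were controls. Of the 19777 genes, 19735 had a gene ID in the RefSeq table. Listed genes without a probe set of their own were not analysed here.

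Probe sets with a mean log2 value under 6.64 (signal 100) in both groups were dropped; 19101 probe sets and 10115 genes stayed, a gene being the mean of its probe sets. limma 3.58.1 in R 4.3.3 (lmFit, eBayes; two-sided) was fitted to all of them with the replicate number as a block, after the paired test of the study's methods, and p-values were adjusted by Benjamini-Hochberg. This left 2 residual and 4.12 prior degrees of freedom. The script was tested on simulated data.

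The members and all gene lists were chosen with earlier results of these data known. The text names all members, up to 4 genes per list and direction with the largest difference among those called and changed alike in all 3 same-numbered pairs, every measured relative and FOXO-repressed gene, and the 3 genes most correlated with each measured FOXO factor. Some genes were named outside this rule, after their values were seen. These were AKT1, AKT2, YWHAG, SFN, PRKAB1, PRKAA1, PRKAG2 and the list genes given as not passing in other lists. Alternatives changed the block, the limit, the normalisation, a pseudocount of 16, the variance model, the choice of probe sets, the test and the replicates. Sequences are from RefSeq, build GRCh38.p14. Plots were drawn with matplotlib 3.10.9 in Python 3.11.15.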

Additional observations from a re-analysis of the deposited data

How the results depend on the processing

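No member gene changed direction or lost its call in 102 values over the alternatives, and the highest adjusted p was 0.0154, for FOXO1 without replicate 2. Nothing is read from this, since the contrast was used in choosing the members and the alternatives refit the same arrays. The members' range without each replicate in turn was 0.42 to 0.62 for FOXO1, -0.48 to -0.40 for FOXO3 and -1.19 to -1.05 for CCNG2. Of 59 list genes named by the rule, 14 lost their call somewhere and 2 turned sign. These 2 were CCNI, at -0.066 to 0.026 with a replicate left out, and TRIB3, at -0.11 from its brightest probe set. The genes called, 5934, ranged from 4280 (without replicate 2) to 6458 (without replicate 1) when a replicate was left out, and were 5303 of 19777 without the signal limit. The probe sets called were 10524, and by the methods' t-test 8637 unadjusted and 3274 after Benjamini-Hochberg. Without the signal limit, the FOXO regulators that rose were 4 and those that fell 5, and 5 other forkhead genes and 5 sestrin pathway genes fell. Of the RBL2 partners, 1 rose with a limit of 200, and 1 rose and 2 fell at the brightest probe sets; median centring left 4 sestrin pathway genes that rose. With a replicate left out, the FOXO regulators that fell ranged from 7 to 17, the RBL2 partners that rose from 0 to 2, and the sestrin pathway genes that rose from 2 to 5 and that fell from 3 to 9. The cause was not tested. The deviations of same-numbered arrays correlated at -0.289, 0.242 and 0.0597. With so few arrays these values cannot settle whether the numbers pair the arrays. The fit with no replicate block called 6265 genes, and IGF1R was the only gene named by the rule whose call it changed.

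The 3 arrays per group, the unstated normalisation and the lack of detection calls limit these values; FOXO1 and INSR lie close to the signal limit and rest on 1 and 2 probe sets.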
